A study of Homo sapiens with 4 samples.

Results

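The HNRNP genes described here are 10 genes of the heterogeneous nuclear ribonucleoproteins (hnRNPs), abundant proteins that coat pre-mRNA in the nucleus: HNRNPA1, HNRNPA2B1, HNRNPC, HNRNPD, HNRNPDL, HNRNPH1, HNRNPK, HNRNPM, HNRNPR and HNRNPU. They were listed by symbol as abundant members of the family, with no measured value in the rule but with earlier results of these data known, and are 10 of the 60708 genes of the count table. Transcription was measured by TT-seq in 4 libraries. In this assay a pulse of 4-thiouridine, here of 20 min, marks newly made RNA, which is purified and sequenced, so the counts cover introns as well as exons. The cells were HEK293, an established human embryonic kidney line, of the genotype RPB1 degron, in which auxin triggers destruction of the cell's own RPB1, the largest subunit of RNA polymerase II (Pol II). Plasmids for RPB1 with a C-terminal domain (CTD) of 52 repeats were transfected transiently, either with wild-type repeats (52x WT) or with T4A, a change of threonine to alanine, in every repeat (52x T4A), with 2 libraries of each. All 4 libraries share the degron, and auxin was added to all of them 48 h after transfection and kept for 48 h. A library that kept its endogenous RPB1 was not analysed here, so each value compares T4A with WT and not with untreated cells. Not every cell takes up a transient plasmid, and the share that did was not given in the sources used here. The comparison asks whether replacing this threonine changed the making of RNA from the HNRNP genes relative to other genes. Fold changes below are scaled to the counts of each library, so a change shared by all genes would not show in them.

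The hnRNPs bind nascent transcripts as Pol II makes them and take part in packaging, splice site choice, 3′ end formation, export and stability of mRNA. Most of them stay in or shuttle through the nucleus, and in dividing cell lines such as HEK293 their genes are strongly transcribed. Several of them regulate their own level through splicing or decay of their own transcripts, which TT-seq counts do not separate from transcription.

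The counts sum to between 33188536 and 45605027 per library, and 84.0% of the 37825 values from 1 to 9 in the table are even. T4A replicate 1 stood apart from the other libraries. Its log2 CPM (counts scaled to the effective library size) correlated across the tested genes at 0.975 and 0.974 with the WT libraries and at 0.979 with T4A replicate 2, whereas T4A replicate 2 correlated at 0.989 and 0.988 with the WT libraries and these at 0.991 with each other. The difference followed GC content: the 3166 tested genes of at least 55% GC had a median log2 deviation from their mean over the libraries of -0.34 in T4A replicate 1. The same median was 0.18 in WT replicate 1, 0.04 in WT replicate 2 and 0.18 in T4A replicate 2. POLR2A, which encodes RPB1, was counted 377312 and 384353 times in WT and 251502 and 279478 times in T4A (log2 fold change -0.24, edgeR adjusted p = 0.659). Transcripts of the transfected plasmids can be counted there, and the degron acts on the protein, so these counts do not check the labels. Of the HEK293 markers, EYA1 had between 1872 and 2699 counts, SALL1 between 284 and 379 and LHX1 between 106 and 152, PAX2 had at most 96 and NEFM at most 6, so NEFM was at or near 0. Of the markers of other cell types, COL1A1 had between 62 and 102 counts, ALB, PTPRC and CD3E at most 38, and MYOD1 and KRT5 at most 4.

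Of the 10 HNRNP genes, 9 were measured. None of them passed the test between T4A and WT, which only 1 of the 23321 tested genes (0.00429%) passed. The point estimates lay within a narrow range: 7 of the 9 were above 0, with HNRNPA2B1 highest at a log2 fold change of 0.20, and 2 were below 0, with HNRNPU lowest at -0.12. HNRNPA2B1, HNRNPDL and HNRNPK had both T4A libraries above both WT libraries with close replicates, and HNRNPU and HNRNPR had both T4A libraries below. Among all tested genes, 24.8% had both T4A libraries above and 24.7% had both below. HNRNPA1, among the best known members of the family, is listed at 0 in all 4 libraries and could not be compared.

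The promoter windows of HNRNPA2B1, HNRNPDL, HNRNPK and HNRNPU are shown because these genes have the 3 highest and the lowest fold changes of the measured members. Each window holds 250 bases before and 50 bases after the transcription start of the RefSeq annotation of GRCh38.p14, 5′ to 3′ on the strand of the gene. Capitals mark the motifs searched on both strands: GGGCGG (the GC box bound by SP factors), CCAAT (bound by NF-Y), TATAAA (the box bound by TBP), CCGGAAG (ETS factors), CACGTG (the E-box), TGCGCA (the core of the NRF1 motif), GATGGC (of YY1) and TCGCGA (of ZBTB33). None of these motifs contains another. The windows lie at chr7:26200697-26200996, chr4:82430413-82430712, chr9:83980566-83980865 and chr1:244864494-244864793, all on the minus strand. The RefSeq start used for HNRNPA2B1 lies inside the span of the count table, which begins further upstream.
HNRNPA2B1: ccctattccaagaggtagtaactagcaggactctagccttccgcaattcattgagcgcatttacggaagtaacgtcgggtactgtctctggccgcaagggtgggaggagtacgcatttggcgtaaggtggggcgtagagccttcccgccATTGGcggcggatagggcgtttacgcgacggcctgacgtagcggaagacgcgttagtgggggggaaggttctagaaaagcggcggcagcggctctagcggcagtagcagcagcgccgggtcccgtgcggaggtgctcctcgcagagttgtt
HNRNPDL: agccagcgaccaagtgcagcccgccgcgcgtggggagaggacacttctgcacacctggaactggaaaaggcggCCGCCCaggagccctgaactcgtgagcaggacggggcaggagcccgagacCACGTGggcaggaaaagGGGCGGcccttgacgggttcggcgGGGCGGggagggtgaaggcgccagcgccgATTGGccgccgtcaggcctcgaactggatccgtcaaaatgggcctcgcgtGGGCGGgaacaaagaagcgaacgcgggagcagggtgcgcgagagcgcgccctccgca
HNRNPK: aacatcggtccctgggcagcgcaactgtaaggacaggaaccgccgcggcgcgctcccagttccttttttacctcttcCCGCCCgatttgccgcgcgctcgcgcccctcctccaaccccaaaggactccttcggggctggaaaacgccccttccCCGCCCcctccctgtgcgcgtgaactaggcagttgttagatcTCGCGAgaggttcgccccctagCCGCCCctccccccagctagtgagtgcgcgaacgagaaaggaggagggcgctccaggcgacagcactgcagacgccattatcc
HNRNPU: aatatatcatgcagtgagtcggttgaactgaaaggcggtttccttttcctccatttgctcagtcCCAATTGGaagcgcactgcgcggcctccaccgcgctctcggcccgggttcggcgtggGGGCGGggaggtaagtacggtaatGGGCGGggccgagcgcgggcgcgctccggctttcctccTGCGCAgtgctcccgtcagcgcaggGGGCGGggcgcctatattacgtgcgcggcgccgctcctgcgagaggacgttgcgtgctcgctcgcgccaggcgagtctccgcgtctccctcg

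HNRNPDL, HNRNPK and HNRNPU hold GC boxes (4, 3 and 3) and none of the 4 windows holds TATAAA. HNRNPK holds TCGCGA, which 3.12% of the 35116 windows of the RefSeq table hold, and HNRNPU holds TGCGCA, which 8.24% hold. Over the 9 members with a window, GGGCGG was found in 5 and CCAAT in 5, against 45.0% and 34.6% of all windows, TATAAA in 2 (HNRNPC and HNRNPD) against 11.5%, CACGTG in 3 (HNRNPD, HNRNPDL and HNRNPM) against 7.26%, and CCGGAAG in 1 (HNRNPD) against 10.3%. GATGGC was found in HNRNPH1 alone, against 12.9% of all windows. TCGCGA and TGCGCA were in no other member. The median GC content of the 9 windows was 65.0%, against 58.7% for all windows. The GC box and CCAAT were both present in HNRNPDL and in HNRNPU, which lay at opposite ends of the fold changes.

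HNRNPA1 and HNRNPA2B1 encode the A/B proteins, which with the C proteins form the core of the particles that package pre-mRNA. HNRNPA1 (ENSG00000135486.19, GRCh38 chr12:54280193-54287088, plus strand) has 0 counts in every library, and its whole span lies inside an lncRNA gene of the same strand, ENSG00000258344 (chr12:54276631-54345083). In this table a coding gene inside a gene of its own strand has no counts: all 234 such genes inside a gene with at least 1000 counts are listed at 0, against 72 of 660 (10.9%) inside such a gene of the other strand only. The 0 therefore does not show that HNRNPA1 was silent, and no upper limit on its level is given. ENSG00000258344 itself was counted 891 and 927 times in WT and 1079 and 988 times in T4A (log2 fold change 0.47, SE 0.12, edgeR adjusted p = 0.208). Its counts can come only from the parts of its span that HNRNPA1 does not share, as far as the pattern above holds. CBX5, which encodes the heterochromatin protein HP1α and starts 60 bases from HNRNPA1 on the other strand, had 165 and 169.8 CPM in WT and 175 and 171 CPM in T4A, and did not pass the test (log2 fold change 0.05, adjusted p = 0.816). The 76 genes whose symbols mark them as HNRNPA1 copies summed to between 139 and 177 counts per library, of which HNRNPA1L3 held between 48 and 74. Reads of near-identical copies can be assigned to the wrong gene, so these counts are uncertain.

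HNRNPA2B1 (ENSG00000122566.22, chr7:26171151-26201529, minus strand), whose product also binds RNA carrying sorting and modification signals, had 389 and 392 CPM in WT replicates 1 and 2 and 443 and 452 CPM in T4A replicates 1 and 2. Both T4A libraries were above both WT libraries, and the gap between the groups was wider than that within either. The log2 fold change was 0.20 (SE 0.10, 95% interval -0.04 to 0.43) with an unadjusted p of 0.0872 and an adjusted p of 0.384 in edgeR's quasi-likelihood test. In these bulk libraries, a change in the number of cells that make an RNA and a change in the amount made per cell cannot be told apart. CBX3, which encodes HP1γ and starts on the other strand with a span that overlaps HNRNPA2B1, had 84.9 and 87.5 CPM in WT and 91.6 and 98.1 CPM in T4A. Its groups did not overlap either, and its log2 fold change of 0.14 did not pass the test (adjusted p = 0.464). HNRNPA2B1 had 4.58 and 4.48 counts per CBX3 count in WT and 4.83 and 4.61 in T4A. NFE2L3, a transcription factor gene whose span also overlaps HNRNPA2B1 from the other strand, had lower values in T4A, with 11.5 and 13.4 CPM in WT and 10.3 and 10.0 CPM in T4A (adjusted p = 0.389).

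HNRNPC (ENSG00000092199.18, chr14:21209136-21269494, minus strand) encodes the C proteins, which bind uridine tracts and take part in sorting transcripts by length. It had the most counts of the members, 859.8 and 926 CPM in WT and 1072 and 924 CPM in T4A. T4A replicate 1 was high and T4A replicate 2 lay just below WT replicate 2, so the groups overlapped. Its log2 fold change was 0.16 (SE 0.14, 95% interval -0.15 to 0.47, adjusted p = 0.590), and without T4A replicate 1 it was 0.06 (adjusted p = 0.905).

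**Figure D1:**
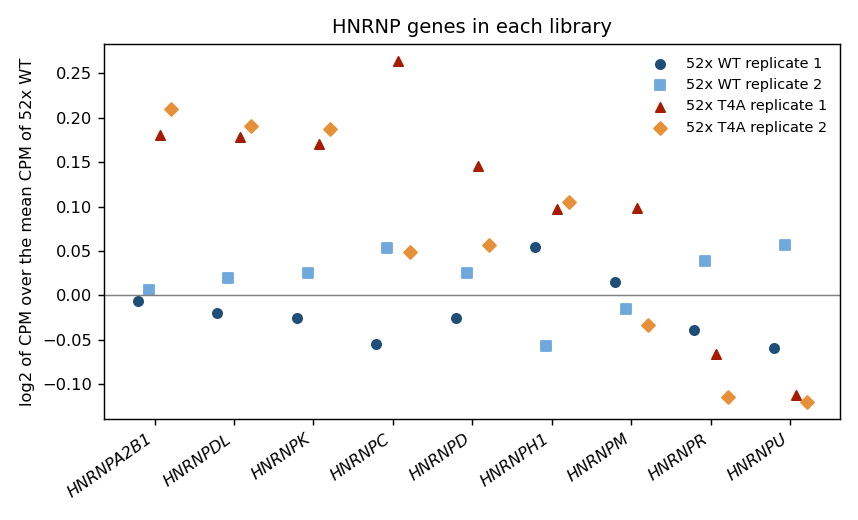
Each point is the log2 of a gene's CPM in 1 library over its mean CPM in the 2 WT libraries, for the 9 measured HNRNP genes ordered by fold change. The 2 T4A libraries sit together above both WT libraries for HNRNPA2B1, HNRNPDL and HNRNPK and together below them for HNRNPU, and both lie below WT for HNRNPR with T4A replicate 1 close to WT replicate 1, whereas T4A replicate 1 (triangles) stands alone for HNRNPC and HNRNPM.

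HNRNPD and its relative HNRNPDL lie next to each other on chromosome 4 and encode proteins that bind AU-rich elements and act on mRNA turnover and splicing. HNRNPDL (ENSG00000152795.18, chr4:82422565-82430462, minus strand) had 115 and 118.5 CPM in WT and 132 and 133 CPM in T4A. The T4A libraries lay close together and above both WT libraries. Its log2 fold change was 0.18 (SE 0.08, 95% interval -0.01 to 0.38), and its unadjusted p of 0.0571 was the lowest among the members (adjusted p = 0.337, edgeR). ENOPH1, an enzyme gene of methionine salvage that starts 128 bases away on the other strand, had 99.8 and 107 CPM in WT and 128 and 117 CPM in T4A (log2 fold change 0.25, SE 0.09, adjusted p = 0.274). HNRNPDL had 1.16 and 1.11 counts per ENOPH1 count in WT and 1.03 and 1.14 in T4A, so the ratio of this pair overlapped between the groups.

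HNRNPD (ENSG00000138668.19, chr4:82352498-82374503, minus strand), the gene of AUF1, had 250.5 and 259.5 CPM in WT and 282 and 265 CPM in T4A. The T4A libraries were above the WT libraries, with T4A replicate 2 close to WT replicate 2. Between the groups the log2 fold change was 0.10 (SE 0.09, 95% interval -0.12 to 0.32, adjusted p = 0.621), and without T4A replicate 1 it was 0.06 (adjusted p = 0.888). HNRNPD-DT, a noncoding gene that starts 202 bases inside on the other strand, had 18.9 and 18.2 CPM in WT and 21.8 and 25.4 CPM in T4A (log2 fold change 0.35, SE 0.13, adjusted p = 0.278).

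HNRNPH1 and HNRNPM encode regulators of alternative splicing that bind G-rich and GU-rich sequences. HNRNPH1 (ENSG00000169045.17, chr5:179614178-179634784, minus strand) had 269.5 and 249.5 CPM in WT and 278 and 279 CPM in T4A. The T4A libraries were nearly equal and lay just above WT replicate 1 (log2 fold change 0.10, SE 0.10, 95% interval -0.12 to 0.32, adjusted p = 0.626). HNRNPM (ENSG00000099783.12, chr19:8444767-8489114, plus strand) had 419 and 410.5 CPM in WT and 444 and 406 CPM in T4A. T4A replicate 1 was the highest library and T4A replicate 2 the lowest. The log2 fold change of HNRNPM was 0.03 (SE 0.11, 95% interval -0.21 to 0.28, adjusted p = 0.894), and it was -0.03 without T4A replicate 1 (adjusted p = 0.959). ENSG00000279827, a gene of uncertain status that starts inside HNRNPM on the other strand, had 29 counts or fewer in every library.

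HNRNPK (ENSG00000165119.21, chr9:83968083-83980616, minus strand) encodes a protein of KH domains that binds C-rich RNA and DNA. It had 259 and 268 CPM in WT and 297 and 300.2 CPM in T4A. Both T4A libraries were above both WT libraries and lay close together. For HNRNPK the log2 fold change was 0.18 (SE 0.09, 95% interval -0.03 to 0.39, unadjusted p = 0.0904, adjusted p = 0.389, edgeR). RMI1, a gene of the dissolvasome complex that starts 182 bases away on the other strand, had 48.6 and 56.1 CPM in WT and 53.8 and 54.5 CPM in T4A, which overlapped (log2 fold change 0.05, adjusted p = 0.841). HNRNPK had 5.33 and 4.78 counts per RMI1 count in WT and 5.51 and 5.51 in T4A. HNRNPK-AS1, which overlaps HNRNPK on the other strand, had at most 18 counts.

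HNRNPK is also the host of MIR7-1, whose precursor lies inside the gene on the same strand. The mature miRNAs, from RefSeq on GRCh38.p14, are shown because the HNRNPK transcript counted here carries them. Their positions are chr9:83969811-83969834 for miR-7-5p and chr9:83969771-83969792 for miR-7-1-3p, and capitals mark the seed, bases 2 to 8.
hsa-miR-7-5p: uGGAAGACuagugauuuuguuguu
hsa-miR-7-1-3p: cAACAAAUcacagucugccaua

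The row of MIR7-1 is listed at 0, as are the coding genes inside a gene of their strand, so the table gives no value for the miRNA and only that of its host.

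HNRNPR and HNRNPU were the measured members with lower values in T4A. HNRNPR (ENSG00000125944.21, chr1:23303771-23344336, minus strand), a relative of SYNCRIP that acts on mRNA processing and transport, had 203 and 214 CPM in WT and 199 and 192 CPM in T4A. T4A replicate 1 lay just below WT replicate 1 (log2 fold change -0.09, SE 0.09, 95% interval -0.30 to 0.12, adjusted p = 0.645). HNRNPU (ENSG00000153187.20, chr1:244840638-244864560, minus strand) encodes scaffold attachment factor A, a nuclear matrix protein that binds chromatin-associated RNA. It had 368 and 398 CPM in WT and 354 and 353 CPM in T4A, with the T4A libraries nearly equal and both below WT. The log2 fold change was -0.12 (SE 0.10, 95% interval -0.35 to 0.12, adjusted p = 0.600). COX20, whose span overlaps HNRNPU from the other strand, had 33.5 and 37.9 CPM in WT and 40.0 and 37.7 CPM in T4A (log2 fold change 0.12, adjusted p = 0.608). ENSG00000273175, an lncRNA gene that starts 178 bases from HNRNPU on the other strand, had 3.17 and 3.27 CPM in WT and 3.78 and 4.34 CPM in T4A (log2 fold change 0.34, SE 0.22, adjusted p = 0.473).

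**Figure D2:**
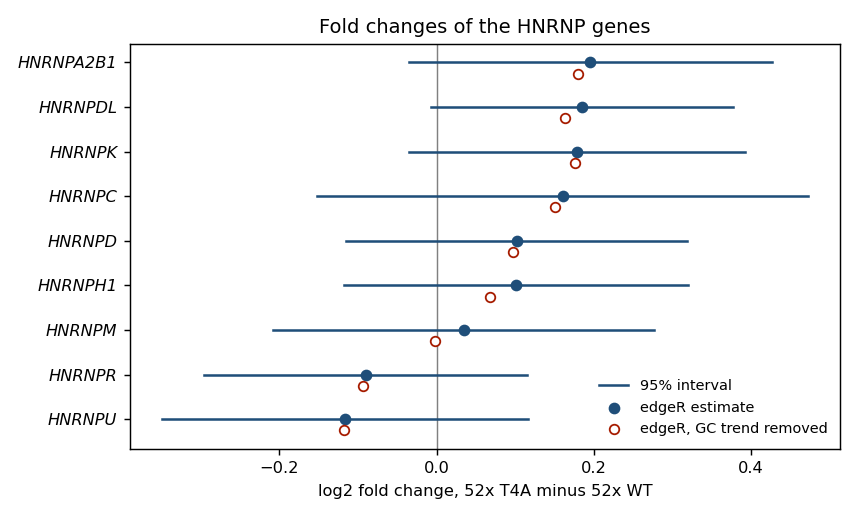
Filled points are log2 fold changes of T4A against WT from edgeR with their 95% intervals, and open points are the same after the trend of each library on GC content was removed. All 9 intervals include 0, and removing the trend moved the estimates little, with HNRNPM moving from 0.03 to just below 0.

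Counted over the members, 0 of the 9 tested passed an adjusted p of 0.05 in edgeR's quasi-likelihood test, against 1 gene (CHST8, named after its value was seen) or 0.00429% of the 23321 genes tested. In this fit the members also gave 0 at an unadjusted p below 0.05, against 15.5% of all tested genes. With the GC trend removed (below), 6199 of 23162 genes had an unadjusted p below 0.05. The members were not counted at that threshold in that fit, so the 0 above holds for the main fit only. Their adjusted p-values from edgeR were lower there than in the main fit for every tested member but HNRNPM. The lowest was 0.0524 (HNRNPA2B1), against 0.384 in the main fit. DESeq2 called 0 members, against 867 (8.39%) of the 10329 genes to which it gave an adjusted p. The T4A libraries were both above the WT libraries for 5 members, against 24.8% of all tested genes, and both below for 2, against 24.7%. The median log2 fold change of the members was 0.10 and that of all tested genes -0.00076, a shift of 0.10. With DESeq2 the median of all genes was 0.07 and the shift 0.0216, and with no filter on low counts they were 0.06 and 0.0215. Standard errors of the members lay between 0.08 and 0.14, and their 95% intervals reached down to -0.35 (HNRNPU) and up to 0.47 (HNRNPC). Nothing in the labels says that the libraries of a group came from separate cultures, so the p-values measure only the spread between these samples, which may be technical.

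GC content moved with the libraries, and 6 of the 9 measured members lay below 42% GC over their span. The 8752 tested genes below 42% GC had median log2 deviations of -0.04, 0.03, 0.06 and -0.06 in WT replicates 1 and 2 and T4A replicates 1 and 2. With the trend on GC content removed, an alternative chosen after seeing the data, 2399 of 23162 genes were called (10.4%) and still none of the members. The lowest adjusted p-values of the members in that fit were 0.0524 for HNRNPA2B1, 0.0557 for HNRNPC and 0.0584 for HNRNPK, and the log2 fold changes were 0.18, 0.15 and 0.18. HNRNPDL followed at 0.0977 and HNRNPU at 0.159. The part of GC content in the members' values was otherwise not tested. Without T4A replicate 1 the estimates were as large for HNRNPA2B1 (0.22), HNRNPDL (0.20) and HNRNPK (0.19), and -0.11 for both HNRNPU and HNRNPR, with adjusted p-values between 0.496 and 0.783.

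Ratios of counts within a library do not depend on the scaling between libraries. HNRNPA2B1 had 1.06 and 0.985 counts per HNRNPU count in WT and 1.25 and 1.28 in T4A. HNRNPK had 0.704 and 0.674 counts per HNRNPU count in WT and 0.838 and 0.851 in T4A. For HNRNPDL per HNRNPR the ratios were 0.569 and 0.555 in WT and 0.666 and 0.694 in T4A. In each pair both T4A libraries were above both WT libraries, and T4A replicate 1 was close to T4A replicate 2. The pairs were chosen after their values were seen, as the members with the highest and the lowest fold changes, so the ratios are a description and were not tested. In CPM, both T4A libraries were already above WT for each first gene and below WT for each second. The separation of the ratios was therefore fixed by the choice of pairs. The members together held 0.312% and 0.313% of the raw counts in WT and 0.347% and 0.344% in T4A. Unlike the ratios, these shares depend on the other genes of the library. As CPM the members summed to 3133 and 3237 in WT and to 3501 and 3304 in T4A replicates 1 and 2.

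**Figure D3:**
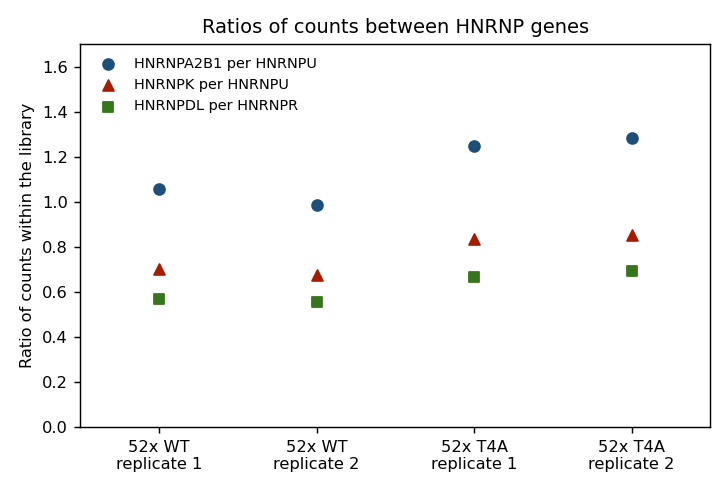
Each point is the ratio of the raw counts of 2 HNRNP genes within 1 library, on a linear axis from 0. All 3 ratios are higher in both T4A libraries than in both WT libraries, with HNRNPA2B1 per HNRNPU at 1.06 and 0.985 in WT and 1.25 and 1.28 in T4A. The choice of pairs fixed this separation.

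Levels of different members were compared as CPM per kb of the listed length, which is the whole span with introns. HNRNPK was densest, at 22.4 CPM per kb as the mean of the 4 libraries (range 20.7 to 23.9). HNRNPDL (15.8), HNRNPC (15.7), HNRNPU (15.4), HNRNPA2B1 (13.8), HNRNPH1 (13.1) and HNRNPD (12.0) followed, and each of these overlapped the next in its range over the libraries. HNRNPM at 9.47 (range 9.15 to 10.0) and HNRNPR at 4.98 (range 4.74 to 5.27) stood apart below them. Even HNRNPR was denser per kb of span than 94.0% of the tested protein-coding genes, and HNRNPK than 99.2%. Because the members were picked as genes of abundant proteins, high percentiles are in part built into the choice. The order depends on the length used: per kb of exonic length HNRNPC came first and HNRNPM second, and HNRNPU, whose span is 94.1% exonic in the annotation used, came last. The counts still include introns there, so this is not a density of exons. Genes with a small exonic share, such as HNRNPC (12.1%) and HNRNPM (12.6%), are raised by it.

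**Figure D4:**
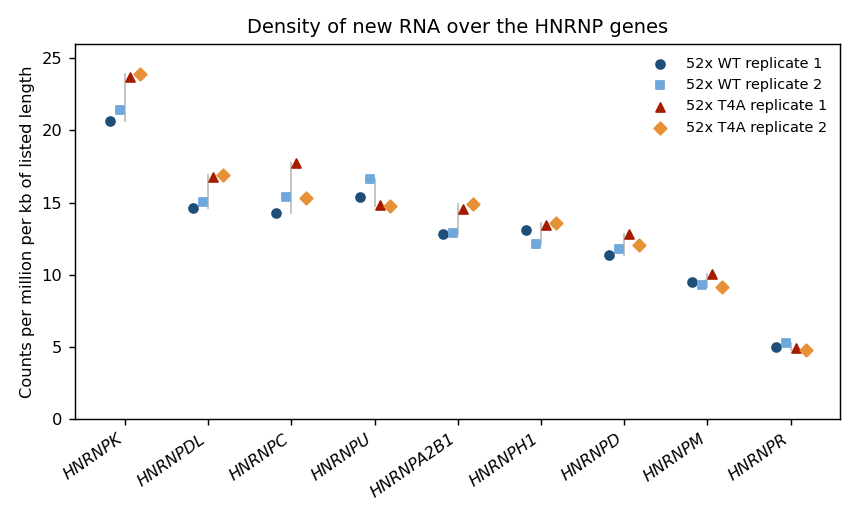
Points are CPM per kb of listed gene span in each of the 4 libraries for the 9 measured HNRNP genes, and grey lines join the lowest and highest library. HNRNPK lies between 20.7 and 23.9, HNRNPR between 4.74 and 5.27, and the 6 genes from HNRNPDL to HNRNPD overlap from each to the next.

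Starts of other genes near the members were also counted. Of the 10 members, 7 (70.0%) have a gene that starts on the other strand within 1000 bases of their own start, and in 4 (40.0%) that gene is protein-coding, namely CBX5, CBX3, ENOPH1 and RMI1. HNRNPC, HNRNPH1 and HNRNPR have none. Of the 9 tested members, 6 (66.7%) have such a gene and 3 (33.3%) a coding one, and among 15329 tested protein-coding genes the shares were 29.1% and 15.7%. The difference was not tested. The members were picked as genes of abundant proteins, and the part of expression level in these shares was not tested. None of the partner genes passed the test between T4A and WT, against 0.00429% of all tested genes. 

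The other genes of the family and its pathway gave no call. Of 17 other hnRNP genes, 15 were tested and none passed the adjusted threshold, with 2 higher and 1 lower at an unadjusted p below 0.05, against 7.45% and 8.02% of all tested genes. The T4A libraries were both above the WT libraries for 7 of them and both below for 2, against 24.8% and 24.7% of all tested genes. Their median log2 fold change was 0.14, and its shift from the median of all tested genes was 0.137, or 0.0583 with DESeq2. HNRNPAB, an A/B-type family member, had 186 and 161 CPM in WT and 208 and 219.9 CPM in T4A (log2 fold change 0.30, adjusted p = 0.254), and HNRNPH3, of the same type as HNRNPH1, followed with 0.23 (adjusted p = 0.266). PCBP1, a poly(C)-binding relative of HNRNPK, had the lowest value at -0.51 (adjusted p = 0.246, and -0.32 without T4A replicate 1), with 24.7 and 29.5 CPM in WT and 16.5 and 21.6 CPM in T4A. PTBP1, the polypyrimidine tract-binding protein gene, had 217 and 171 CPM in WT and 88.6 and 197 CPM in T4A (log2 fold change -0.44, adjusted p = 0.495). Its log2 fold change was 0.03 without T4A replicate 1 (adjusted p = 0.951). Its span has 61.2% GC. HNRNPUL2 and SYNCRIP, the 2 untested genes, have at most 1 count in any library, and less than 1% of the span of either is free of other genes of the same strand.

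Several hnRNPs enter the nucleus through transportins, and several are methylated by arginine methyltransferases. None of the 4 genes read for these steps (TNPO1, TNPO2, PRMT1 and PRMT5) passed the test, against 0.00429% of all tested genes. The log2 fold change of TNPO1, the import receptor of hnRNP A1, was 0.02 (adjusted p = 0.930), and that of PRMT5 was -0.03 (adjusted p = 0.929). TNPO2, with 108 and 94.4 CPM in WT and 78.0 and 93.4 CPM in T4A, had -0.24 (adjusted p = 0.358). PRMT1 had -0.30 (adjusted p = 0.510), with T4A replicate 1 lowest at 24.5 CPM. Without that library TNPO2 was at -0.10 and PRMT1 at 0.02.

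The SR genes encode the splicing factors that often act against hnRNPs at the same exons. All 11 were tested and none passed the adjusted threshold, with 3 higher and 0 lower at an unadjusted p below 0.05, against 7.45% and 8.02% of all tested genes. Both T4A libraries were above both WT libraries for 7 and below for 2, against 24.8% and 24.7% of all tested genes. Their median log2 fold change was 0.04, and 0.12 over the 9 genes with at least 50% of their span free of other genes of the same strand. SRSF3, whose product couples splicing to export, had 343 and 347 CPM in WT and 442 and 410.1 CPM in T4A (log2 fold change 0.30, SE 0.10, adjusted p = 0.252). SRSF7, its close relative, had 254 and 253.9 CPM in WT and 309.8 and 315 CPM in T4A (log2 fold change 0.30, SE 0.09, adjusted p = 0.241). The lowest values were those of SRSF1 (-1.03, adjusted p = 0.632) and SRSF6 (-0.75, adjusted p = 0.740), which had 15 and 63 counts at most and 0 in T4A replicate 1. Under 2% of the span of either is free of other genes of the same strand. These values are therefore not those of whole genes.

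**Figure D5:**
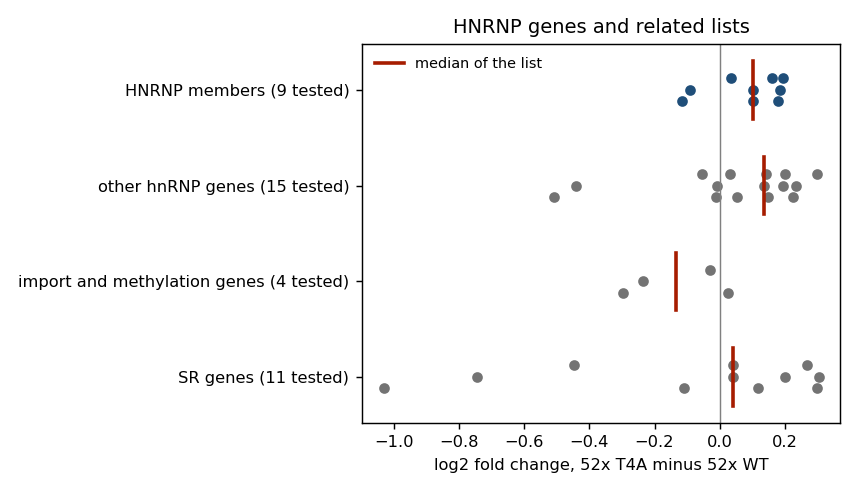
Each point is the log2 fold change of T4A against WT of 1 tested gene, in rows for the HNRNP genes, the other hnRNP genes, the import and methylation genes and the SR genes, and red bars mark the list medians. The 9 HNRNP genes lie between -0.12 and 0.20 and the 15 other hnRNP genes between -0.51 and 0.30, and no gene shown was called.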

How the data were processed

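The members and gene lists were chosen with earlier results of these data known. The authors deposited 1 table of raw counts per gene over the whole gene span, introns included. The submitters' processing notes name FastQC, cutadapt 4.6, STAR 2.7.11b, Picard, deepTools 3.5.6 and GRCh38, and the table was read as a featureCounts table from its header. The table's listed length equals the span for 100.0% of genes. Strand-specific libraries were made with dUTP. Counts summed to 39249066 and 45605027 (52x WT) and to 33853507 and 33188536 (52x T4A), and most low values are even, so reads of a pair may have been counted singly.

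Symbols were taken by stable identifier from a GENCODE annotation (58742 of 60708 matched), which with its GRCh37 genome also gave exonic length and GC content. Coordinates of genes are those of the count table. T4A was compared with WT with edgeR 4.0.16 in R 4.3.3 (TMM, its default low-count filter, quasi-likelihood test, Benjamini-Hochberg adjustment over 23321 genes, adjusted p below 0.05). The fit was also run on simulated counts, with set changes larger than any member's estimate and without a GC trend. That run does not check effects of the members' size. Standard errors came from the F statistic, and 95% intervals from the t distribution with the 8.48 degrees of freedom of the fit. Named genes are all members, POLR2A, the 2 highest and 2 lowest fold changes of each list (and any called), genes overlapping a member or starting within 1000 bases on the other strand, and copies by summed counts. HNRNPA1 had no promoter entry, and PECAM1 was not used here. Genes named with values without T4A replicate 1 were given them after seeing the data. Alternatives were DESeq2 1.42.0, other scalings and filters, trends on length and GC, the replicate number as a block, and leaving out each library. Deviations from the group mean in WT and T4A libraries of the same number correlated at r = 0.00498 across genes. The numbers were not taken as pairs in the main fit, and a batch shared by a number was not tested.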

Additional observations from a re-analysis of the deposited data

How the results depend on the processing

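No member was called under any of 12 alternatives. Of 108 values of members under them, 105 kept their direction, with adjusted p-values between 0.0524 and 0.997. The 3 that reversed were all of HNRNPM: -0.0018 with the GC trend removed, -0.0018 without WT replicate 2 and -0.0253 without T4A replicate 1, with 0.0837 as its highest value when a library was left out. The GC trend was added after seeing the data. The number of genes called in all moved from 1 to 867 with DESeq2 (of 10329 genes given an adjusted p), 195 with scaling to mitochondrially encoded genes, 150 with no filter on low counts, 2 with the length trend removed and 2399 with the GC trend removed, and lay between 0 (without WT replicate 2) and 3466 (without T4A replicate 2) when a library was left out, with 333 without T4A replicate 1 and 3 without WT replicate 1. With the replicate block 533 genes were called and no member, and the lowest adjusted p of a member was 0.627 (HNRNPDL). The cause was not tested.

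The members' median log2 fold change of 0.10 became 0.15 with scaling to library size and lay between 0.06 and 0.13 when a library was left out. Its shift from all tested genes, 0.10, became 0.0216 with DESeq2 and 0.0215 with no filter, where the median is over 39234 genes, and lay between 0.0601 (without T4A replicate 1) and 0.129 (without T4A replicate 2). The other hnRNP genes' shift, 0.14, became 0.0583 with DESeq2, 0.0587 with no filter and 0.0909 with the GC trend removed, and lay between 0.0767 (without WT replicate 1) and 0.126 (without WT replicate 2). With only genes at least 50% free of others of their strand it was 0.14. Without T4A replicate 1 or 2, a group has 1 library, assumed to vary like the other group. With 2 libraries a group, changes within the intervals could not be told from the spread, and larger ones could still miss the adjusted threshold. LRRC7, named after its value was seen, had a log2 fold change of -0.89 (SE 0.11) and an adjusted p of 0.105 in edgeR's quasi-likelihood test. The lack of a call therefore does not exclude a change in a member.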
